A study of Mus musculus with 12 samples.

Results

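The difference between 35delG homozygous and wild-type cochleae was compared between the basal and the middle turn. The cochlea is the coiled hearing organ of the inner ear, and Gjb2 encodes connexin 26, a gap junction protein of its supporting cells and lateral wall. For each gene the quantity compared was the homozygous minus wild-type difference in the base minus the same difference in the middle, called the turn difference here. Its 8 libraries were chosen from 12 by their labels, 2 each of wt-middle, ho-middle, wt-base and ho-base, where wt is wild-type and ho is Gjb2 35delG/35delG. Of 37432 genes in the table, the 15584 with at least 1 FPKM (fragments counted per length of transcript and per size of library) in 2 or more of these 8 libraries were tested. The 4 apical libraries were not used to choose or class genes.

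All groups were described as males at P14, and each cochlea was cut into 3 equal sections along its length. The Y-linked Eif2s3y was at 0.0315 or less in the homozygous middle and base libraries, as given below. The homozygous mice grew from male embryonic stem cells by tetraploid complementation, were delivered by cesarean section, nursed by ICR females and had a mostly C57BL/6J background. The wild-type males were purchased, so genotype and the origin of the mice cannot be told apart. The 2 libraries of a group were called biological repeats, and the number of mice or cochleae behind a library was not stated. The p-values measure the spread between these libraries. Read depth is unknown because the table holds FPKM, which were scaled here by factors of 0.938 to 1.07.

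The cochlear spiral holds a sensory strip of hair cells and supporting cells under the tectorial membrane. Spiral ganglion neurons carry the signal of hair cells through myelinated fibres into the auditory nerve. Schwann cells wrap the peripheral part of these fibres and oligodendrocytes the central part. The lateral wall, made of the stria vascularis and the fibrocytes of the spiral ligament, sets the composition of the endolymph. A section of cochlea contains all of these tissues and the surrounding bone and marrow. In bulk tissue, fewer cells of a type and less RNA per cell cannot be told apart.

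The 2 wild-type base libraries stood apart from each other. Pearson's r between these libraries, on log2(scaled FPKM + 1) over the 15584 genes, was 0.885, against 0.937 to 0.953 for the other 3 pairs. The ho-base libraries correlated with the wt-middle libraries at 0.895 to 0.930 and with the wt-base libraries at 0.753 to 0.882. The wt-base libraries correlated with the ho-middle libraries at 0.896 to 0.942. The libraries of a base thus lay closer to the other genotype's middle turn than to the other genotype's base. The turn labels were not checked, since no list used here marks a turn. With libraries of the other groups, wild-type base replicate 1 correlated at 0.753 to 0.942 and replicate 2 at 0.868 to 0.939. Which of them is unusual cannot be told from 2 libraries. Some results below are also given without a single library of this pair.

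At an adjusted p under 0.01 and more than 2-fold, limma called no gene for the turn difference (0% of the genes), 5 genes in the base (0.0321%) and 6 in the middle (0.0385%). The turn difference had an unadjusted p under 0.05 for 4998 genes. At an adjusted p under 0.05, the level used below and chosen after this result, 1931 genes (12.4%) passed. Of these, 1265 (8.12%) were relatively higher in the homozygous base and 666 (4.27%) relatively lower. In the base alone 1040 genes (6.67%) passed at this level, and in the middle alone 9 genes (0.0578%). Leaving out wild-type base replicate 2 gave 2858 genes at 0.05 and 705 at 0.01, and leaving out either wt-middle library gave 0 at both levels (unadjusted p under 0.05 for 3698 and 3917 genes without replicate 1 and 2). With all 12 libraries sharing the estimate of the spread, 1464 genes (9.39%) passed at 0.01.

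Sign was described without a test, since the classes use the same values as the turn difference. A gene was called reversing when its log2 differences were of opposite sign and at least 1 in size in both turns, and keeping when they had the same sign at that size. Reversing genes numbered 1080 (6.93%) and keeping genes 79 (0.507%). Of the reversing genes, 808 were lower in the homozygous middle and higher in the homozygous base, and 272 were the opposite. A further 922 genes (5.92%) differed by at least 1 in the base and by under 0.5 in the middle, and 405 (2.6%) the other way round. Without wild-type base replicate 2, reversing genes numbered 1068 and keeping genes 149. Just inside the reversing limit lay Mblac2 (−1.0008 in the middle and 1.31 in the base), Pcdh10 (−1.31 and 1.0016) and Tceal3 (−1.08 and 1.002), and just outside it Tmem169 (−0.9997 and 1.54).

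**Figure D1:**
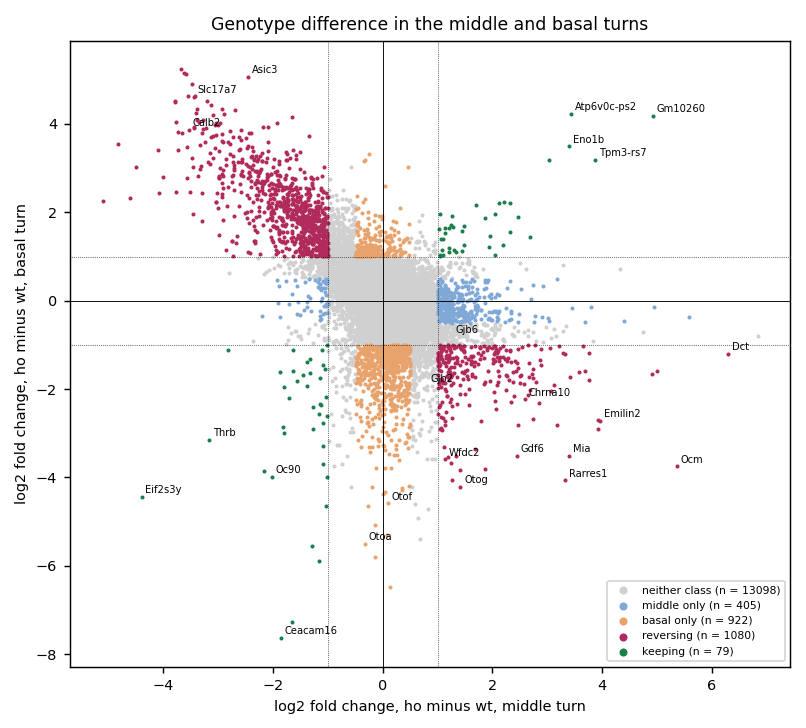
Each point is a gene tested, with the homozygous minus wild-type log2 fold change of the middle turn on the x axis and of the basal turn on the y axis, and dotted lines at 1 and −1. The upper left corner holds 808 reversing genes and the lower right corner 272, whereas the corners of equal sign hold 79 keeping genes.

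The levels of most reversing genes had a crossed order, in which each base sat with the middle turn of the other genotype. For 1964 genes (12.6%) all 4 wt-middle and ho-base libraries lay above all 4 wt-base and ho-middle libraries, and for 1428 genes (9.16%) all lay below. The first order was found in 688 of the 808 genes and the second in 147 of the 272. The definition of reversing sets the direction within each turn from the same values, so these shares are partly built in. At any size, 10444 genes (67%) had opposite signs in the turns. Libraries of the 2 genotypes were apart in both turns and in opposite directions for 4402 genes (28.2%), and in the same direction for 1021 (6.55%).

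The reversing genes that were higher in the homozygous base included many neuronal genes. Leading genes were taken from those that passed the test, had a group mean of at least 5 scaled FPKM and did not overlap between genotypes in either turn. The 8 of largest turn difference were Vsnl1, Slc17a7, Spock3, Eef1a2, Chgb, Asic3, Map1a and Calb2. Coordinates are those of the file, on mm10 (GRCm38). Vsnl1, a neuronal calcium sensor at chr12:11325242-11436613, was at 99.8 and 127 in wt-middle, 22.5 and 1.89 in ho-middle, 0.455 and 31.1 in wt-base and 159.6 and 150.1 in ho-base, all in scaled FPKM as are the levels that follow. Its turn difference was 8.29 on the log2(scaled FPKM + 1) scale (SE 2.11, limma adjusted p = 0.0499). In Vsnl1 all 4 libraries of wt-middle and ho-base lie above the other 4, and the 2 libraries of ho-middle, like those of wt-base, differ by more than 10 times.

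Slc17a7 (chr7:45163949-45176142), the vesicular glutamate transporter VGLUT1, was at 82.7 and 71.1 in wt-middle, 16.6 and 1.92 in ho-middle, 0.0268 and 13.9 in wt-base and 138 and 65.1 in ho-base (turn difference 8.06, SE 1.87, limma adjusted p = 0.0398). Chgb (chr2:132781278-132795079), chromogranin B of secretory granules, was at 73.04 and 89.98 in wt-middle, 15.8 and 2.71 in ho-middle, 1.27 and 13.7 in wt-base and 184 and 72.7 in ho-base (7.72, SE 1.46, limma adjusted p = 0.0247). Calb2 (chr8:110137502-110168210), the calcium-binding protein calretinin, was the most abundant of these genes, at 874 and 1328 in wt-middle, 205 and 41.2 in ho-middle, 33.3 and 138 in wt-base and 1180.0 and 854 in ho-base (7.40, SE 1.26, limma adjusted p = 0.0211). In all of them the 4 high libraries are wt-middle and ho-base. The choice of these genes fixed the order of the genotypes within each turn. Ranking by the turn difference also favours the crossed order across turns, so that order is not a separate result.

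Asic3 (chr5:24413392-24417834), an acid-sensing ion channel of sensory neurons, was at 50.2 and 71.6 in wt-middle, 20.7 and 4.77 in ho-middle, 0.494 and 6.95 in wt-base and 193 and 68.3 in ho-base. Its basal difference of 5.07 (SE 0.96) passed the limma test of the base (adjusted p = 0.039), while its middle difference of −2.45 (SE 0.96) did not (adjusted p = 0.232). Spock3 (chr8:62951009-63357103), a secreted proteoglycan, had levels of 131 and 175 in wt-middle, 24.3 and 3.88 in ho-middle, 2.91 and 15.4 in wt-base and 177 and 98.1 in ho-base. It too passed in the base (4.05, limma adjusted p = 0.0489) and not in the middle (−3.78, limma adjusted p = 0.137). Eef1a2 (chr2:181147653-181157014), a translation elongation factor of neurons and muscle, and Map1a (chr2:121289600-121310832), a microtubule-associated protein, had turn differences of 7.72 and 7.41 with the same order of groups.

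**Figure D2:**
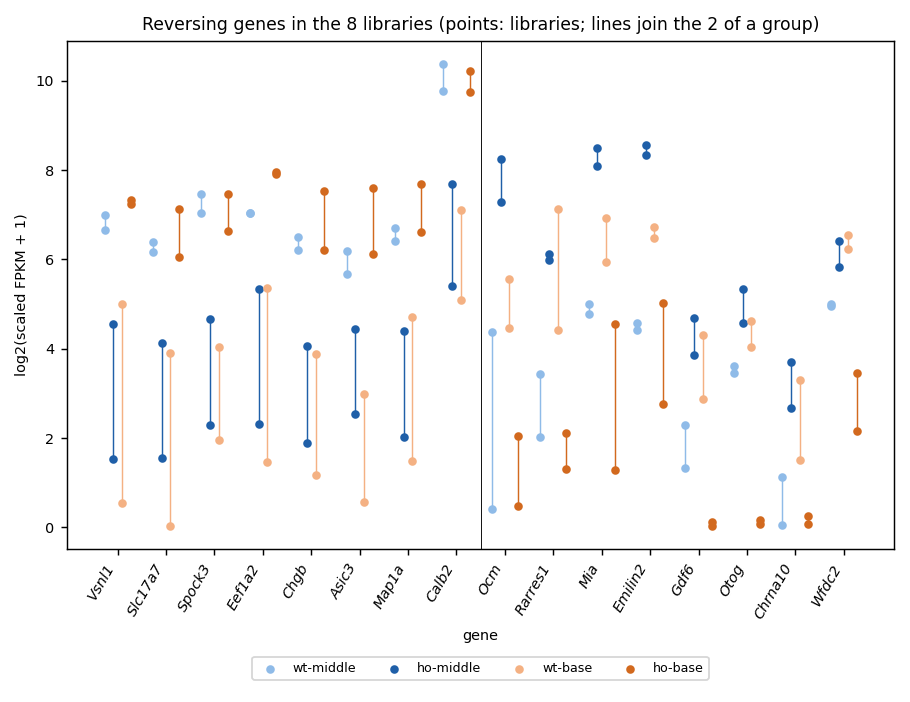
Level of 16 reversing genes as log2(scaled FPKM + 1) on the y axis, with a point for each library and a line joining the 2 libraries of a group. The genes were chosen for no overlap between genotypes in either turn and for a large turn difference. The former fixes their order within a turn, and the latter favours their order across turns. To the left of the divider wt-middle and ho-base are high (for Calb2, 874 and 1328 scaled FPKM in wt-middle, and 1180.0 and 854 in ho-base), and to the right wt-base and ho-middle are high (for Emilin2, 105 and 88.5 in wt-base, and 377 and 322 in ho-middle).

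Markers of spiral ganglion neurons reversed in 16 of 18 genes tested, beside 6.93% of all genes. Their median was −3.34 in the middle and 3.97 in the base, against 0.03 and −0.01 over all genes. Of the 18, 6 passed the test of the turn difference, all positive (Syt2, Ina, Elavl4, Slc17a6, Elavl3 and Rbfox3), beside 8.12% of all genes. Their summed level was 2146 and 2478 in wt-middle, 513 and 70.5 in ho-middle, 27.4 and 1222 in wt-base and 3575 and 4581 in ho-base. Snap25, a SNARE protein of synaptic vesicle fusion, was at 348 and 434 in wt-middle, 91.1 and 9.87 in ho-middle, 2.14 and 156 in wt-base and 733 and 837 in ho-base, and its turn difference of 8.77 did not pass (SE 2.51, limma adjusted p = 0.0681). The neurofilament gene Nefh was at 306 and 304 in wt-middle, 67.7 and 7.24 in ho-middle, 0.59 and 139 in wt-base and 643 and 493 in ho-base (8.92, limma adjusted p = 0.0837). The wt-base libraries of Nefh lie far apart. The median turn difference of the list, 7.21, was 5.03 without wild-type base replicate 1 and 9.25 without replicate 2, the ends of the range over all libraries left out. Gap43 and Prph, at no more than 5.59 scaled FPKM in any of the 8 libraries, were the members that did not reverse.

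Synaptic vesicle and release genes reversed in 13 of 17 tested (beside 6.93% of all genes), and 12 passed as positive (beside 8.12%). Vamp1, the vesicle SNARE synaptobrevin, was at 171 and 226 in wt-middle, 56.1 and 23.6 in ho-middle, 17.4 and 64.2 in wt-base and 370.0 and 295 in ho-base (turn difference 5.65, SE 0.91, limma adjusted p = 0.0201). Dnm1, the dynamin of vesicle retrieval, was at 88.1 and 84.1 in wt-middle, 34.4 and 17.1 in ho-middle, 16.3 and 32.97 in wt-base and 159 and 172 in ho-base (4.56, limma adjusted p = 0.0184). Syn1, the vesicle phosphoprotein synapsin I, was at 25.3 and 20.5 in wt-middle, 7.05 and 0.945 in ho-middle, 0.692 and 8.76 in wt-base and 48.4 and 50.3 in ho-base (6.22, limma adjusted p = 0.0298). Vamp2, Syt1, Cplx2 and Stx1a did not reverse and did not pass, with turn differences between −0.46 and −0.05. Vamp2 was at 57.3 and 52.7 in wt-middle, 61.2 and 89.1 in ho-middle, 80.5 and 61.6 in wt-base and 62.95 and 82.7 in ho-base, so its levels overlapped across the groups.

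Voltage-gated potassium and sodium channel genes, which shape the action potential, reversed in all 13 members tested (beside 6.93% of all genes) and all passed as positive (beside 8.12%). The median was −2.43 in the middle and 2.93 in the base. Kcna1, a potassium channel beside the nodes of myelinated axons, was at 33.99 and 60.1 in wt-middle, 8.02 and 5.85 in ho-middle, 8.72 and 7.83 in wt-base and 109 and 44.3 in ho-base (5.48, limma adjusted p = 0.0176). Scn8a, the sodium channel of nodes of Ranvier, was at 9.77 and 11.97 in wt-middle, 3.35 and 1.21 in ho-middle, 0.812 and 3.93 in wt-base and 34.2 and 12.2 in ho-base (4.78, limma adjusted p = 0.0247). Kcnh2 had the smallest turn difference of the list, 3.02, with 14.4 and 15.3 in wt-middle, 5.73 and 4.34 in ho-middle, 7.2 and 6.57 in wt-base and 26.7 and 19.9 in ho-base, and its libraries did not overlap in either turn. These channel genes are expressed by neurons, so the list is not independent of the neuronal markers.

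Genes of Schwann cells and peripheral myelin reversed in 17 of 20, and 15 passed as positive, beside 6.93% and 8.12% of all genes. The list summed to 21087 and 6443 in wt-middle, 919 and 927 in ho-middle, 1701 and 5931 in wt-base and 10135 and 15810.5 in ho-base, so that wild-type base replicate 2 was close to wild-type middle replicate 2. Prx, periaxin of Schwann cells, was at 86.6 and 109 in wt-middle, 17.5 and 19.96 in ho-middle, 34.5 and 18.7 in wt-base and 127 and 149.8 in ho-base (4.71, limma adjusted p = 0.0175). Egr2, the transcription factor of myelinating Schwann cells, was at 7.57 and 11.7 in wt-middle, 4.03 and 5.05 in ho-middle, 2.67 and 3.16 in wt-base and 20.03 and 18.4 in ho-base (3.29, limma adjusted p = 0.0175), and its middle difference of −0.92 kept it just out of the reversing class. Sh3tc2, at 5.56 and 5.93 in wt-middle, 4.32 and 6.41 in ho-middle, 6.98 and 4.36 in wt-base and 6 and 4.67 in ho-base, had a turn difference of 0.05. Prx and Egr2 each differ by less than 2 times between the wt-base libraries, and the median of the list was 4.60 with wild-type base replicate 2 and 4.39 without it.

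Mbp, a myelin gene shared by Schwann cells and oligodendrocytes, was less even, at 11679 and 1131 in wt-middle, 156 and 141 in ho-middle, 325 and 3198 in wt-base and 4018 and 6540.0 in ho-base. It was highest in wild-type middle replicate 1 and did not pass (limma adjusted p = 0.0632). Genes of oligodendrocytes, the myelinating cells of the central nervous system, summed to 1165 and 11.2 in wt-middle, 6.72 and 6.99 in ho-middle, 6.97 and 336 in wt-base and 369 and 533 in ho-base. They were at 336 or more in 4 libraries, namely wild-type middle replicate 1, wild-type base replicate 2 and both of ho-base, and at 11.2 or less in the other 4. Of 11 members 9 reversed (beside 6.93% of all genes) and 0 passed by limma (unadjusted p under 0.05 in 1). Without wild-type middle replicate 1 the median turn difference of the list was 2.21 instead of 4.36. Gfap of astrocytes followed the same libraries, at 361 and 0.799 in wt-middle, 1.76 and 1.36 in ho-middle, 1.34 and 120.0 in wt-base and 148 and 248 in ho-base (6.84, limma adjusted p = 0.254). The neuronal sum was 2146 and 2478 in wt-middle, beside oligodendrocyte sums of 1165 and 11.2. In ho-middle it was 513 and 70.5, beside 6.72 and 6.99. In wt-base it was 27.4 and 1222, beside 6.97 and 336, and in ho-base 3575 and 4581, beside 369 and 533. The part of central nerve tissue in the turn difference was not tested.

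**Figure D3:**
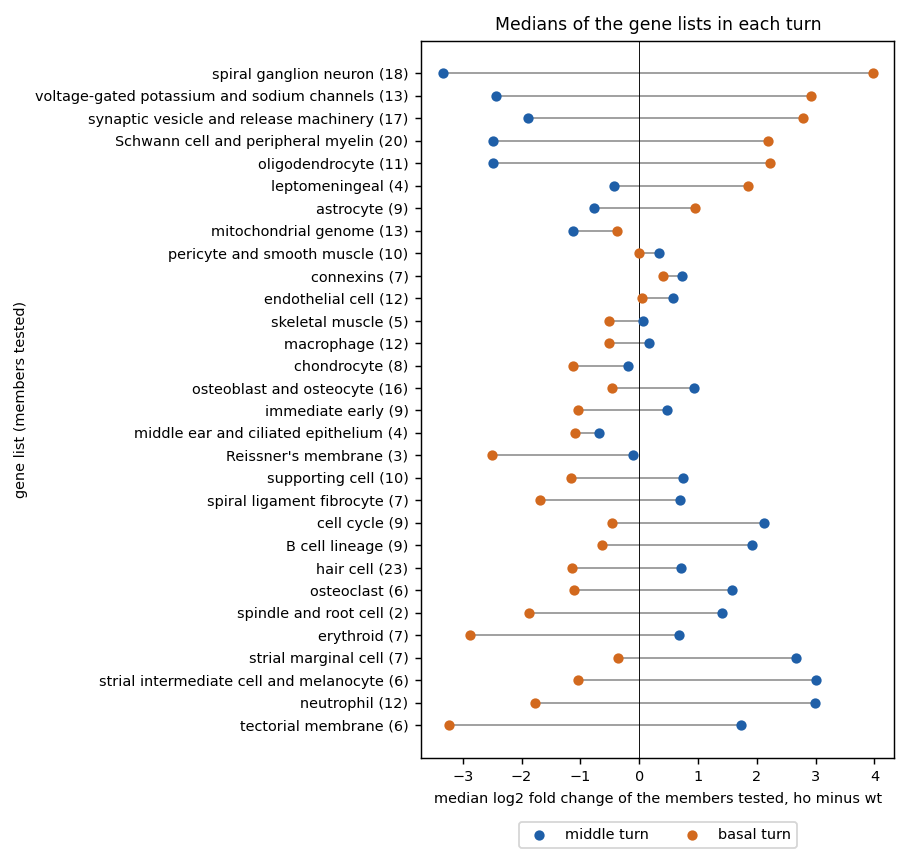
Median homozygous minus wild-type log2 fold change of the members tested in 30 gene lists, in the middle turn (blue) and the basal turn (orange), ordered by the median turn difference. Spiral ganglion neuron genes run from −3.34 in the middle to 3.97 in the base, and tectorial membrane genes from 1.74 to −3.24.

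Promoters are shown for members of both directions, since members of a direction shared their order of groups. The 250 bases before the RefSeq start site (GRCm38.p6) were searched on both strands for TTCAGCACC, the left arm of the RE1 element that the neuronal repressor REST binds, and for TATAAA, the TATA box. The motifs do not overlap each other, and they were chosen after the results were seen. TTCAGCACC was found in 6 of 600 promoters matched to genes that reversed towards the homozygous base (1%: Cdh9, Dner, Ppfia3, Rragb, Syn1 and Tmem196). It was found in 0 of 187 promoters of the opposite direction, in 41 of 11268 of the genes tested (0.364%) and in 99 of all 32851 (0.301%). TATAAA was found in 57 of the 600 (9.5%), 26 of the 187 (13.9%), 906 of the 11268 (8.04%) and 4063 of all 32851 (12.4%). In the sequences, capitals mark the match. The first line is Syn1, from the higher group (RE1 arm 232 bases before the start). The second is Eno2, neuronal enolase of the same group (TATAAA on the opposite strand, 201 bases before the start). The others are S100a8, a granulocyte calcium-binding protein (TATAAA 30 bases before the start), and Otor, otoraplin of spiral ligament fibrocytes (35 bases), both lower in the homozygous base. The turn difference was 6.70 for Eno2 (limma adjusted p = 0.0292) and −4.55 for Otor, which did not pass (limma adjusted p = 0.13).
Syn1 (chrX:20920919-20921168, minus strand): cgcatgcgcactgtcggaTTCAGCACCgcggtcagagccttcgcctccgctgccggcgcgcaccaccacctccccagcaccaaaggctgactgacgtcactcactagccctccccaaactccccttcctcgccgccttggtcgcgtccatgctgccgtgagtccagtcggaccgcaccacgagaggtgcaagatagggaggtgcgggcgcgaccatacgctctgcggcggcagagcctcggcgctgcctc
Eno2 (chr6:124769674-124769923, minus strand): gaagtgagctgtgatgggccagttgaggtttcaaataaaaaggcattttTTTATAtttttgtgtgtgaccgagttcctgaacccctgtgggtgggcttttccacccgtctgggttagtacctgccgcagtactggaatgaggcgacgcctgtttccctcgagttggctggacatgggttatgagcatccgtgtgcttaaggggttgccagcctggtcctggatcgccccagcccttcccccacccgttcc
S100a8 (chr3:90668821-90669070, plus strand): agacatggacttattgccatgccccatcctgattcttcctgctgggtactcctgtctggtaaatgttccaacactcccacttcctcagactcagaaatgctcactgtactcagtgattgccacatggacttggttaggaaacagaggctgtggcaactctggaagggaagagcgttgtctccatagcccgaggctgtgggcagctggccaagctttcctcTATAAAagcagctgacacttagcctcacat
Otor (chr2:143078143-143078392, plus strand): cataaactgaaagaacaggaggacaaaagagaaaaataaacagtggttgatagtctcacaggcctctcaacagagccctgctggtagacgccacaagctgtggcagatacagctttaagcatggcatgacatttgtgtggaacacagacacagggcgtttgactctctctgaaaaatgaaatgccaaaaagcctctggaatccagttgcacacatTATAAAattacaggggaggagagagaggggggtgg
A match is a description of these letters and was not tested as a binding site.

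The reversing genes that were lower in the homozygous base and higher in the homozygous middle included genes of the sensory epithelium and its matrices. By the same rule, the 8 leading genes were Ocm, Rarres1, Mia, Emilin2, Gdf6, Otog, Chrna10 and Wfdc2. Ocm (chr5:144019804-144026599), oncomodulin of outer hair cells, was at 0.341 and 19.7 in wt-middle, 155 and 302 in ho-middle, 20.98 and 45.9 in wt-base and 3.13 and 0.385 in ho-base. Its turn difference of −9.11 (SE 1.76, limma adjusted p = 0.0255) was the largest in size of the 16 leading genes. The wt-middle libraries of Ocm differ by a larger factor than its ho-middle libraries do.

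Otog (chr7:46240987-46311434), otogelin of the tectorial membrane, was at 10.01 and 11.3 in wt-middle, 22.9 and 39.4 in ho-middle, 15.4 and 23.7 in wt-base and 0.125 and 0.0534 in ho-base (−5.62, SE 0.43, limma adjusted p = 0.0175). Its basal difference of −4.21 (SE 0.31) passed in the base (limma adjusted p = 0.0106), and its middle difference of 1.42 did not (limma adjusted p = 0.133). Emilin2 (chr17:71252172-71311556), an extracellular matrix glycoprotein, was at 22.7 and 20.3 in wt-middle, 377 and 322 in ho-middle, 105 and 88.5 in wt-base and 31.5 and 5.8 in ho-base (−6.67, SE 0.91, limma adjusted p = 0.0189). Gdf6 (chr4:9844372-9862345), a ligand of the BMP family, was at 1.54 and 3.91 in wt-middle, 13.5 and 24.7 in ho-middle, 18.8 and 6.32 in wt-base and 0.0809 and 0.0283 in ho-base (−5.97, SE 0.78, limma adjusted p = 0.0184). By the choice of these genes, the ho-middle libraries exceed wt-middle and the ho-base libraries lie below wt-base.

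Chrna10 (chr7:102111266-102116713), a nicotinic receptor subunit of the efferent synapse on outer hair cells, was at 0.0369 and 1.2 in wt-middle, 5.41 and 12.1 in ho-middle, 1.85 and 8.81 in wt-base and 0.0558 and 0.198 in ho-base (−4.83, limma adjusted p = 0.0262). Mia (chr7:27179742-27181157), a secreted protein of cartilage, was at 26.6 and 30.8 in wt-middle, 272 and 358 in ho-middle, 119.8 and 60.3 in wt-base and 22.6 and 1.42 in ho-base (−6.91, limma adjusted p = 0.0266). Wfdc2 (chr2:164562579-164568510), a secreted epithelial protein, was at 30.8 and 30.1 in wt-middle, 55.5 and 83.7 in ho-middle, 93.1 and 74.2 in wt-base and 9.92 and 3.45 in ho-base (−4.73, limma adjusted p = 0.0184). Rarres1 (chr3:67478972-67515523), a retinoid-responsive gene, was at 3.09 and 9.75 in wt-middle, 68.3 and 62.6 in ho-middle, 20.5 and 139.8 in wt-base and 3.35 and 1.49 in ho-base (−7.39, limma adjusted p = 0.0208). Whether the 16 leading genes kept an adjusted p under 0.05 depended on which library was left out.

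Hair cell genes had a negative turn difference in all 23 members tested, beside 8596 of all 15584 genes. Of the 23, 10 passed (beside 4.27% of all genes) and 6 reversed (beside 6.93%). Members below the filter included Atoh1 and Myo3b. The list summed to 90.7 and 204 in wt-middle, 306 and 527 in ho-middle, 251 and 222 in wt-base and 73.5 and 85.9 in ho-base. Among outer hair cell genes, Ocm, Chrna10 and Strc reversed. Strc, stereocilin, was at 0.045 and 0.344 in wt-middle, 4.71 and 8.74 in ho-middle, 0.602 and 1.88 in wt-base and 0.0666 and 0.0758 in ho-base (−3.66, limma adjusted p = 0.0192), and Slc26a5, the outer hair cell motor prestin, at 0.0252 and 0.857 in wt-middle, 7.61 and 11.6 in ho-middle, 0.588 and 1.42 in wt-base and 0.0505 and 0 in ho-base (−3.85, limma adjusted p = 0.0189). For Slc26a5 the ho-middle libraries were above all the others, and the basal difference was −0.94.

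Of the hair cell genes, 5 differed by at least 1 in the base and under 0.5 in the middle, beside 5.92% of all genes. They were Otof, Pou4f3, Slc17a8, Lhfpl5 and Xirp2, and 12 hair cell genes were in no sign class. Otof and Pou4f3 of the 5 passed the test of the turn difference. Otof (chr5:30367062-30461932), otoferlin of the inner hair cell synapse, was at 9.3 and 24.6 in wt-middle, 13.9 and 19.1 in ho-middle, 31.9 and 20.4 in wt-base and 0.0975 and 0.108 in ho-base. Its middle difference was 0.09 and its basal difference −4.59 (limma adjusted p = 0.0221 in the base), giving a turn difference of −4.68 (SE 0.62, limma adjusted p = 0.0186). Pou4f3, a hair cell transcription factor, was at 2.6 and 8.02 in wt-middle, 5.73 and 7.69 in ho-middle, 13.2 and 7.65 in wt-base and 0 and 0.435 in ho-base (−3.64, limma adjusted p = 0.024). Slc17a8, the glutamate transporter VGLUT3 of inner hair cells, was at 4.74 and 23.8 in wt-middle, 7.46 and 10.96 in ho-middle, 27.9 and 4.86 in wt-base and 0.899 and 0.75 in ho-base and did not pass (−2.59, limma adjusted p = 0.205). Pou4f3, Otof and Slc17a8 are thus low in both ho-base libraries, while their middle turn libraries overlap between genotypes.

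The study names Myo3a, Myo3b, Myo15, Otof and Tmc1 as lower in the homozygous base, which is the basal difference and not the turn difference. Here the basal difference was −1.85 for Myo15, −1.96 for Tmc1 and −0.85 for Myo3a. None of these passed in the base (limma adjusted p = 0.104, 0.0918 and 0.303). Otof passed in the base (−4.59), and Myo3b was below the filter. The differences that follow are turn differences. Myo15 (chr11:60469339-60528369), the myosin of stereocilia tips, was at 0.115 and 1.17 in wt-middle, 3.82 and 8.26 in ho-middle, 1.18 and 5.38 in wt-base and 0.0418 and 0.0254 in ho-base (−3.95, SE 0.84, limma adjusted p = 0.0323). Tmc1, a subunit of the mechanotransduction channel, was at 0.514 and 4.05 in wt-middle, 3.52 and 6.45 in ho-middle, 6.45 and 3.75 in wt-base and 0.243 and 0.871 in ho-base and did not pass (−3.03, SE 0.84, limma adjusted p = 0.0628). Myo3a was at 0.158 and 1.1 in wt-middle, 0.646 and 0.785 in ho-middle, 1.78 and 0.171 in wt-base and 0 and 0 in ho-base, listed at 0 in the homozygous base. Myo6, a myosin of the hair cell body, was at 36.1 and 39.7 in wt-middle, 33.6 and 45.96 in ho-middle, 47.3 and 31.8 in wt-base and 24.6 and 17.2 in ho-base (−0.94, limma adjusted p = 0.159), a narrower range than the bundle genes. The hair cell median moved from −2.59 to −1.73 without wild-type middle replicate 1 and to −3.66 without replicate 2, and the wt-middle repeats differ in hair cell genes (0.514 and 4.05 for Tmc1).

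All 6 tectorial membrane genes passed as negative (beside 4.27% of all genes), but they did not share a sign class. Tectb, Otog and Otogl reversed. Tectb, beta-tectorin, was at 0.455 and 0.165 in wt-middle, 29.1 and 49.3 in ho-middle, 0 and 10.4 in wt-base and 0.0847 and 0.0479 in ho-base (−6.57, limma adjusted p = 0.0334). Otoa, otoancorin of the limbal attachment, was at 89.4 and 86.97 in wt-middle, 58.97 and 83.1 in ho-middle, 190.3 and 31.6 in wt-base and 1.05 and 0.475 in ho-base, so that the difference lay in the base (−5.50) and not in the middle (−0.33). Ceacam16, a glycoprotein of the tectorial membrane, was at 1379.6 and 1146 in wt-middle, 276 and 438 in ho-middle, 2244 and 391 in wt-base and 10.04 and 1.01 in ho-base. It was lower in homozygotes in both turns (−1.85 and −7.64) and passed, with the larger difference in the base (−5.78, SE 1.42, limma adjusted p = 0.0463). P2rx2, an ATP-gated channel of cells facing the endolymph, followed Otoa (55.7 and 50.6 in wt-middle, 39.7 and 57.6 in ho-middle, 129 and 26.1 in wt-base and 1.87 and 0.0838 in ho-base, turn difference −4.93, limma adjusted p = 0.0339). The matrix sum was 11.97 and 1.89 in ho-base against 406 to 2454 in the other 6 libraries. Ceacam16 made up most of this sum in every library (2244 of 2454 in wild-type base replicate 1). The sum thus follows this gene rather than the list.

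Of 10 supporting cell genes tested, 4 passed as negative (Fgfr3, Jag1, Lfng and Lgr6), beside 4.27% of all genes. As positive 1 passed (Prox1), beside 8.12% of all genes. Fgfr3, the growth factor receptor of pillar and Deiters' cells, was at 5.06 and 6.72 in wt-middle, 16.3 and 25.01 in ho-middle, 12.4 and 10.1 in wt-base and 4.31 and 3.76 in ho-base (−2.91, limma adjusted p = 0.0184). Jag1, a Notch ligand, was at 1.76 and 4.33 in wt-middle, 8.03 and 12.4 in ho-middle, 7.21 and 5.86 in wt-base and 1.7 and 1.99 in ho-base (−2.92, limma adjusted p = 0.0212). Prox1 moved the other way, at 7.58 and 4.56 in wt-middle, 1.07 and 0.349 in ho-middle, 0.278 and 0.99 in wt-base and 11.9 and 3.8 in ho-base (4.35, limma adjusted p = 0.0209), and it is also expressed by spiral ganglion neurons. Sox2 was at 10.6 and 7.64 in wt-middle, 5.98 and 9.33 in ho-middle, 7.87 and 11.7 in wt-base and 7.83 and 9.25 in ho-base, with a turn difference of 0.08. In all, 8 of the 10 turn differences were negative, beside 8596 of all 15584 genes.

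The mutated gene Gjb2 (chr14:57098600-57104702) was at 138 and 262 in wt-middle, 250.2 and 446 in ho-middle, 429.9 and 252 in wt-base and 126 and 58.1 in ho-base, and FPKM over the whole gene do not show the deleted base. Its turn difference was −2.74 (SE 0.77, limma adjusted p = 0.0633) and did not pass. Gjb6 (chr14:57123303-57133611), connexin 30, was at 123 and 172 in wt-middle, 279 and 443 in ho-middle, 288 and 267 in wt-base and 165 and 153 in ho-base and passed (−2.07, SE 0.44, limma adjusted p = 0.0314), with a middle difference of 1.27 and a basal difference of −0.80. Among connexins of other cells, Gjb1 of myelinating glia was at 65.1 and 15.4 in wt-middle, 2.2 and 1.78 in ho-middle, 4.4 and 16.5 in wt-base and 29.2 and 46.9 in ho-base (5.43, limma adjusted p = 0.027) and Gjd2 of neurons at 11.4 and 8.85 in wt-middle, 1.39 and 0.191 in ho-middle, 0 and 2.46 in wt-base and 11.7 and 7.68 in ho-base (5.21, limma adjusted p = 0.0208). Of the 7 connexins tested, 2 thus passed as positive (beside 8.12% of all genes) and 1 as negative (beside 4.27%).

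Lateral wall genes were uneven within groups. Markers of strial marginal cells, which secrete endolymph, summed to 133 and 145 in wt-middle, 346 and 445 in ho-middle, 174 and 379.6 in wt-base and 259.9 and 58.1 in ho-base, and markers of intermediate cells and melanocytes to 10.1 and 5.03 in wt-middle, 246 and 529 in ho-middle, 8.21 and 517 in wt-base and 172 and 9.21 in ho-base. Their median turn differences were −3.94 and −4.22, and 2 of 7 and 3 of 6 reversed, beside 6.93% of all genes. By limma 0 passed in either list (unadjusted p under 0.05 in 2 and 0). The first median was −2.29 without homozygous base replicate 2, and the second −2.25 without wild-type base replicate 2. Dct, a melanin synthesis enzyme, was at 5.52 and 1.61 in wt-middle, 222 and 469 in ho-middle, 1.01 and 435 in wt-base and 156 and 0.064 in ho-base (−7.49, SE 4.17, limma adjusted p = 0.263). The middle turn separates the genotypes for Dct, but each base holds a library at 156 or more and a library at 1.01 or less. Kcne1, a subunit of the marginal cell potassium channel, was at 0.426 and 0 in wt-middle, 45.96 and 68.2 in ho-middle, 0 and 59.8 in wt-base and 35.6 and 0 in ho-base, with the same uneven bases.

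Spiral ligament fibrocyte genes summed to 7207 and 7614 in wt-middle, 7679 and 11522 in ho-middle, 7025 and 6697 in wt-base and 2555 and 519 in ho-base, and 0 of 7 passed by limma (unadjusted p under 0.05 in 1). Coch, cochlin, was at 3801 and 5236 in wt-middle, 3362 and 5408 in ho-middle, 3978 and 3066 in wt-base and 1108 and 421 in ho-base (−2.29, limma adjusted p = 0.174). Otos, otospiralin, was at 3195 and 2069 in wt-middle, 3433 and 4997 in ho-middle, 2571 and 3079.8 in wt-base and 842 and 4.39 in ho-base. Both ho-base libraries of Otos lie below the other 6. Anxa1, annexin of root cells, was at 23.7 and 24.1 in wt-middle, 153 and 112 in ho-middle, 52.7 and 119.9 in wt-base and 44.3 and 20.3 in ho-base and passed (−3.78, limma adjusted p = 0.0226).

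Genes of marrow and blood were uneven within some groups. All 12 neutrophil genes were reversing (beside 6.93% of all genes), with a median of 2.98 in the middle and −1.76 in the base. By limma 0 of them passed (unadjusted p under 0.05 in 10). They summed to 47.4 and 262 in wt-middle, 6585 and 366 in ho-middle, 461 and 2071 in wt-base and 131 and 179 in ho-base, highest in homozygous middle replicate 1 and wild-type base replicate 2. S100a8 was at 12.2 and 79.8 in wt-middle, 2069 and 119 in ho-middle, 149 and 814 in wt-base and 41.5 and 50.1 in ho-base (−6.84, SE 2.13, limma adjusted p = 0.0832). Without homozygous middle replicate 1 the median of the list was −3.19 instead of −5.08. Erythroid genes summed to 484 and 1555 in wt-middle, 3457 and 571 in ho-middle, 3146 and 4915 in wt-base and 433 and 519 in ho-base. Of the 7 tested, 2 reversed (beside 6.93% of all genes) and 0 passed by limma (unadjusted p under 0.05 in 6). The alpha and beta globin genes are near-identical pairs, so their separate FPKM are uncertain. Osteoclast genes summed to 24.9 and 26.2 in wt-middle, 406 and 34.05 in ho-middle, 33.7 and 98.2 in wt-base and 24.04 and 25.05 in ho-base. Of 6 tested Nfatc1 alone passed, as negative, beside 4.27% of all genes (2.37 and 3.04 in wt-middle, 7.29 and 5.36 in ho-middle, 4.1 and 3.95 in wt-base and 2.23 and 2.19 in ho-base, turn difference −1.63, limma adjusted p = 0.0229). B cell genes reversed in 4 of 9 (beside 6.93% of all genes) and 0 passed by limma (unadjusted p under 0.05 in 3). Cell cycle genes were at 156 summed in homozygous middle replicate 1 and at 5.66 to 24.9 in the other 7 libraries. The part of marrow in the sections was not tested.

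**Figure D4:**
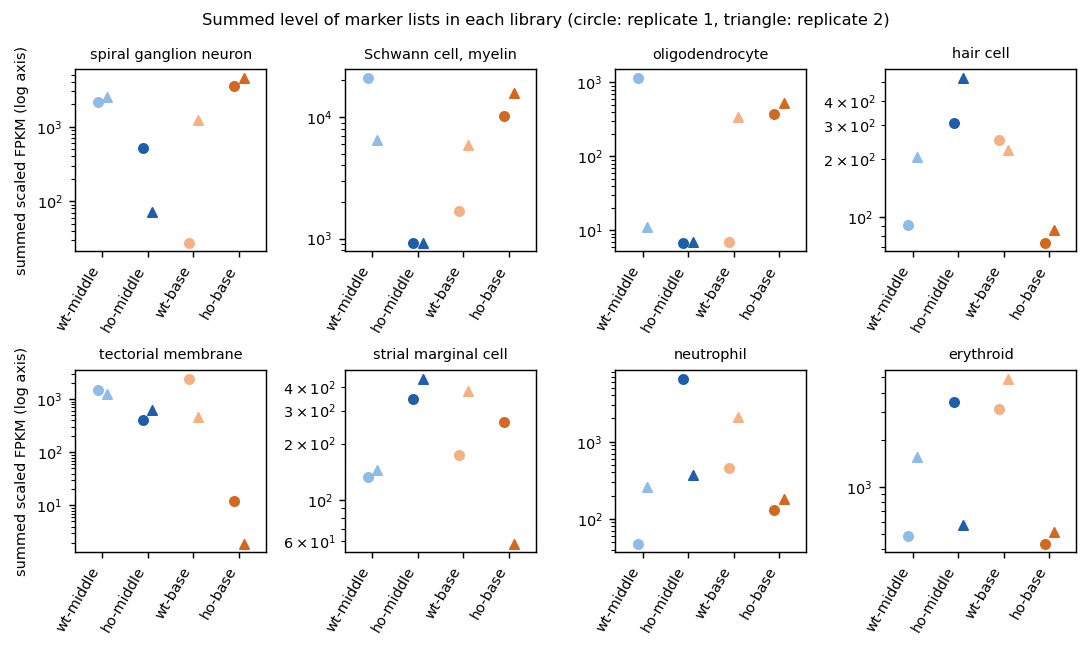
Summed scaled FPKM of 8 marker lists on a log axis, with a circle for replicate 1 and a triangle for replicate 2 of each group. Neuronal sums are higher in wt-middle and ho-base than in the other 4 libraries. The Schwann cell sum of wild-type base is 1701 in replicate 1 and 5931 in replicate 2. The oligodendrocyte sum of wild-type middle is 1165 in replicate 1 and 11.2 in replicate 2. The tectorial membrane sum, most of which is Ceacam16, is lowest in ho-base.

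Of 12 endothelial genes 1 passed as negative, beside 4.27% of all genes (Emcn, endomucin, 31.4 and 34.96 in wt-middle, 64.2 and 61.2 in ho-middle, 41.4 and 38.5 in wt-base and 16.7 and 9.59 in ho-base, turn difference −2.48, limma adjusted p = 0.0189), and 0 reversed. Cldn5, of endothelial tight junctions, was at 15.6 and 21.6 in wt-middle, 15.5 and 22.5 in ho-middle, 20.98 and 12.5 in wt-base and 13.6 and 21.98 in ho-base. Pericyte and smooth muscle genes summed to 119 and 112 in wt-middle, 119 and 117 in ho-middle, 97.4 and 92.9 in wt-base and 74.8 and 71.5 in ho-base, with 0 of 10 reversing or passing by limma (unadjusted p under 0.05 in 1). Macrophage genes had a median turn difference of −0.76 and 0 passed by limma (unadjusted p under 0.05 in 1). This median was −0.29 without homozygous base replicate 1, −0.47 without homozygous middle replicate 1 and −0.46 without wild-type base replicate 2.

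The remaining lists are given by their counts. Of osteoblast and osteocyte genes 1 of 16 passed (Mepe, −1.97, beside 4.27% of all genes as negative), and of chondrocyte genes 1 of 8 passed, as positive (Hapln1, 5.43, beside 8.12% of all genes). The median turn difference was −1.21 for the bone list and −0.96 for the cartilage list, and the former was −2.30 without wild-type base replicate 1, −0.0055 without wild-type base replicate 2, −0.67 without homozygous middle replicate 1 and −0.62 without wild-type middle replicate 2. Of 2 spindle and root cell genes tested, Anxa1 passed as negative, beside 4.27% of all genes. In Reissner's membrane, skeletal muscle, middle ear epithelium, leptomeningeal, astrocyte and immediate early genes 0 passed by limma (unadjusted p under 0.05 in 2, 1, 1, 0, 1 and 3, in this order). Vmo1 of Reissner's membrane was at 473 and 531 in wt-middle, 503 and 601 in ho-middle, 1516 and 118 in wt-base and 11.7 and 0.765 in ho-base (−6.62, limma adjusted p = 0.0615). The middle ear gene Bpifa1 was at 0.396 and 9.16 in wt-middle, 0.452 and 0 in ho-middle, 7.74 and 3363 in wt-base and 0.124 and 0.101 in ho-base, so that wild-type base replicate 2 holds a level not seen in the other libraries. The leptomeningeal gene Slc6a13 was at 10.95 and 0.199 in wt-middle, 2.42 and 0.543 in ho-middle, 0.266 and 16.7 in wt-base and 10.8 and 61.2 in ho-base. Mitochondrial genes had a positive turn difference in all 13 members (median 0.72), beside 6988 of all 15584 genes. By limma 0 passed (unadjusted p under 0.05 in 0), and the FPKM share of these genes ran from 7.64% to 20.6% over the 8 libraries. Their median was 0.084 without wild-type base replicate 1, 1.37 without wild-type base replicate 2, 1.14 and 0.35 without homozygous base replicate 1 and 2, 0.45 without homozygous middle replicate 2 and 0.47 without wild-type middle replicate 2.

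The genes that kept their sign held few members of the tissue lists, namely Ceacam16, Kcnk2, Slc4a10 and Bpifa1. The 4 leading genes that were higher in homozygotes in both turns were Gm10260, Atp6v0c-ps2, Eno1b and Tpm3-rs7. Gm10260 (chr13:97760072-97760632) was at 0 and 0 in wt-middle, 36.8 and 23.5 in ho-middle, 0 and 0.00695 in wt-base and 13.02 and 22.5 in ho-base, and so was listed at 0 in wt-middle. Atp6v0c-ps2 (chr6:37806086-37806550) was at 1.47 and 1.24 in wt-middle, 25.2 and 23.7 in ho-middle, 0.725 and 1.49 in wt-base and 34.1 and 41.7 in ho-base, with differences of 3.43 in the middle (limma adjusted p = 0.00665) and 4.23 in the base (limma adjusted p = 0.00618). Eno1b (chr18:48045335-48048412) was at 0.159 and 0.208 in wt-middle, 10.8 and 12.2 in ho-middle, 0.128 and 0.152 in wt-base and 10.5 and 13.4 in ho-base (3.40 and 3.49, limma adjusted p = 0.00665 and 0.00618). By their names, the last 3 of these 4 are copies or relatives of Atp6v0c, Eno1 and Tpm3, and reads of near-identical copies cannot be told apart with certainty. Of the 79 keeping genes 9 (11.4%) are annotated as pseudogenes, beside 2.38% of the genes tested.

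The 4 leading genes that were lower in both turns were Eif2s3y, Thrb, Fxyd2 and Oc90. Thrb (chr14:17660896-18038090), a thyroid hormone receptor needed for hearing, was at 8.76 and 7.59 in wt-middle, 0.0355 and 0.00823 in ho-middle, 8.6 and 7.24 in wt-base and 0 and 0 in ho-base, and passed at adjusted p = 0.00665 in the middle and 0.00618 in the base by limma. Eif2s3y (chrY:1010543-1028594), a Y-linked translation factor, was at 13.02 and 31.4 in wt-middle, 0 and 0.0315 in ho-middle, 29.9 and 14.2 in wt-base and 0 and 0 in ho-base, although all mice were described as male. It passed in the base (limma adjusted p = 0.0275) and not in the middle (limma adjusted p = 0.0569). Fxyd2, a sodium pump subunit, was at 18.5 and 31.6 in wt-middle, 3.3 and 6.39 in ho-middle, 51.1 and 7.52 in wt-base and 0.499 and 0.405 in ho-base, and Oc90, otoconin, at 16.6 and 31.3 in wt-middle, 3.35 and 6.99 in ho-middle, 63.02 and 3.93 in wt-base and 0.255 and 0 in ho-base. Fxyd2 passed in the base (limma adjusted p = 0.0422) and not in the middle (limma adjusted p = 0.212). Oc90 passed in neither the base (limma adjusted p = 0.0717) nor the middle (limma adjusted p = 0.352). For these 8 genes the turn difference did not pass, with limma adjusted p of 0.144 or more.

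Leading genes with a difference of at least 1 in the middle and under 0.5 in the base were Ano1, Alox15 and Serpinf1. All of them passed the test of the turn difference and none that of the middle turn (limma adjusted p = 0.115, 0.0959 and 0.0804). Ano1 (chr7:144588549-144738592), a calcium-activated chloride channel, was at 1.79 and 1.1 in wt-middle, 23.8 and 38.8 in ho-middle, 1.36 and 9.2 in wt-base and 2.6 and 2.47 in ho-base (−4.17, SE 0.90, limma adjusted p = 0.0334). Alox15, a lipoxygenase, was at 0.246 and 0.796 in wt-middle, 14.3 and 5.76 in ho-middle, 0.52 and 0.816 in wt-base and 0.188 and 0.177 in ho-base (−3.26, limma adjusted p = 0.0226). Serpinf1, the secreted factor PEDF, was at 36.2 and 55.4 in wt-middle, 184 and 179 in ho-middle, 64.3 and 59.4 in wt-base and 47.95 and 42.8 in ho-base (−2.44, limma adjusted p = 0.0189). In each, the ho-middle libraries lie above the other 6, and for Alox15 and Serpinf1 the ho-base libraries also lie below wt-base.

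The apical turn supplied values that were not used for the classes. Of the 808 genes that reversed towards the homozygous base, 758 (93.8%) were lower in the homozygous apex, beside 52.2% of all genes tested. The 2 libraries of each genotype were apart and lower in homozygotes for 650 (80.4%, beside 31.6% of all genes) and apart and higher for 10 (1.24%, beside 27.4%). Of the 272 genes of the opposite direction, 194 (71.3%) were higher in the homozygous apex, beside 47.8% of all genes. Libraries were apart and higher for 124 (45.6%, beside 27.4% of all genes) and apart and lower for 46 (16.9%, beside 31.6%). The median apical difference was −0.74 for the 808, 0.49 for the 272 and −0.02 for all genes. At an adjusted p under 0.01, 18 genes (0.116%) passed in the apex. Apical values thus had the sign of the middle turn in most reversing genes.

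Neuronal markers summed to 856 and 1228 in wt-apex and 232 and 512 in ho-apex, and Schwann cell markers to 2987 and 3189.9 in wt-apex and 1861 and 2440.3 in ho-apex. Calb2 was at 555 and 759.5 in wt-apex and 96.8 and 219 in ho-apex, an apical difference of −2.15 (limma adjusted p = 0.258). Hair cell genes did not share the sign of the middle turn, with sums of 776 and 767 in wt-apex and 473 and 408 in ho-apex and a median of −0.80. Ocm was at 360.0 and 353 in wt-apex and 221 and 219 in ho-apex, against a middle difference in the other direction. Keeping genes kept their sign in the apex as well, in 36 of the 40 that were higher and 37 of the 39 that were lower.

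**Figure D5:**
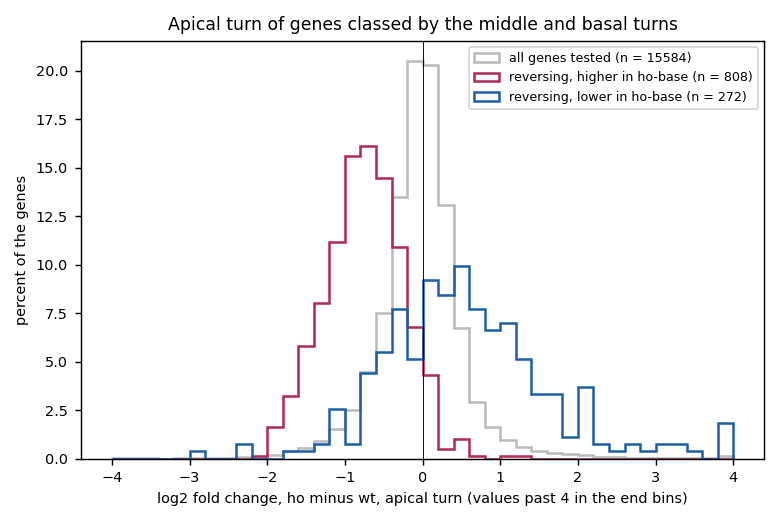
Distribution of the apical homozygous minus wild-type log2 fold change, as percent of the genes of each class, for all 15584 genes tested and for the reversing genes of each direction. The 808 genes higher in the homozygous base have a median of −0.74 and the 272 genes lower in it a median of 0.49.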

How the data were processed

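RNA-seq was made by the authors from 3 sections of wild-type and 35delG homozygous cochleae at P14. They used the miRNeasy Micro Kit, 150 bp paired ends, fastp 0.20.0, STAR 2.7.3a on mm10 and featureCounts 2.0.0. The deposited table holds FPKM that the authors computed with StringTie 2.0, without whole-read steps, so depth and counting error are unknown. Their DESeq2 1.30.0 tests of counts were not used here. The annotation release is not given in the sources used here.

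FPKM were divided by median-of-ratios factors over 11705 genes at 1 FPKM or more in all 8 libraries. Genes at 1 FPKM in 2 libraries were tested on log2(value + 1) with limma 3.58.1 (R 4.3.3), 1 mean for each of 4 groups, eBayes with trend (residual degrees of freedom 4, prior 2.62), a two-sided test and Benjamini-Hochberg adjustment over 15584 genes. This scale understates changes of low genes. With 2 libraries a group, an exact permutation test within a turn cannot go below p = 0.333. The level of adjusted p under 0.05 replaced the planned 0.01 after no gene had passed 0.01. Apical differences come from a fit of all 12 libraries in 6 groups.

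Sign classes and 30 gene lists were counted without a test. The members and lists were chosen with earlier results of these data known. Named genes are Gjb2 and Gjb6, the 8 reversing genes of largest turn difference in each direction, the 4 keeping genes of largest smaller difference in each direction, 3 genes of each turn alone, 2 members of highest level in each list, list members that passed, and genes the study names. Not every gene that the rule covers is reported here, and list members outside it were named after their values were seen.

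Replicate numbers were not used as pairs. Replicate differences of the groups correlated at −0.439 to 0.209 across genes. The fit was also run on simulated data with independent noise in each library. That run does not check the calls given here. Promoters are from RefSeq. Plots used matplotlib 3.10.9 (Python 3.11.15).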

Additional observations from a re-analysis of the deposited data

Results flagged for a closer look

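Results in which the genotype difference of the base differed from that of the middle by the test of the difference itself are listed here as values, and no explanation was tested. They comprise 1931 genes at an adjusted p under 0.05. Of the named genes, the difference between turns on the log2(scaled FPKM + 1) scale was positive for Vsnl1 (8.29), Slc17a7 (8.06), Spock3 (7.83), Eef1a2 (7.72), Chgb (7.72), Asic3 (7.52), Map1a (7.41) and Calb2 (7.40). It was negative for Ocm (−9.11), Rarres1 (−7.39), Mia (−6.91), Emilin2 (−6.67), Gdf6 (−5.97), Otog (−5.62), Chrna10 (−4.83) and Wfdc2 (−4.73). Of the genes with a difference of at least 1 in the base and under 0.5 in the middle it was −5.18 for Otoa, −4.93 for P2rx2 and −4.68 for Otof. Of those with the limits the other way round, whose middle difference itself did not pass, it was −4.17 for Ano1, −3.26 for Alox15 and −2.44 for Serpinf1. For Myo15 it was −3.95. The groups hold 2 libraries each, too few for a check of single libraries against their group.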

How the results depend on the processing

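No gene passed an adjusted p under 0.01 for the turn difference, and 1931 passed 0.05. At 0.01 the count was 1464 with all 12 libraries and 0 to 705 when each library was left out, the 705 without wild-type base replicate 2. At 0.05 it was 0 without a filter on low values, 3213 with all 12 libraries, 717 with a replicate block, 279 with a replicate block within genotype and 0 to 2858 when each library was left out. It was 0 without wild-type middle replicate 1 or 2, 398 and 724 without homozygous middle replicate 2 or 1, and 471 and 795 without homozygous base replicate 1 or 2. A block with crossed replicate numbers, added after the data were seen, gave 2279. The FPKM as deposited split the calls into 1146 positive and 919 negative, against 1265 and 666. The cause was not tested.

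In the base, the 5 calls at 0.01 became 1 with quantile normalization, 8 with a pseudocount of 0.1, 0 without a filter, 1 with a filter of 5 FPKM, 702 with all 12 libraries, 0 with a replicate block, 1040 at 0.05, 0 with the libraries of the base alone and 0 to 269 when each library was left out. In the middle, the 6 calls became 3 with a pseudocount of 0.1, 0 without a filter, 0 with a filter of 5 FPKM, 29 with all 12 libraries, 0 with a replicate block, 0 with the middle libraries alone and 0 in every fit that left out a library. In the apex, the 18 calls became 93 with the apical libraries alone, 30 with the FPKM as deposited, 10 with a replicate block and 4 to 7 when each library was left out. The replicate block within genotype could not be fitted for these 3 differences.

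Reversing genes numbered 1735 with a pseudocount of 0.1 and 933 to 1162 when each library was left out. Keeping genes numbered 229 with a pseudocount of 0.1 and 67 to 149 when each library was left out. The median turn difference of the connexins, −0.38, was 0.24 with a filter of 5 FPKM, where fewer members were tested, and −0.62 to −0.14 when each library was left out. Of the 16 leading reversing genes, 10 kept an adjusted p under 0.05 with the replicate block, 8 with the block within genotype, 13 with a pseudocount of 0.1, and 0 to 16 when a library was left out. Depth is unknown, so no limit of detection was given.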
